A study of Mus musculus with 2 samples.

Results

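The genes that bring fatty acids into the liver cell and activate them were followed in liver RNA of male C57Bl/6J mice. The set was chosen by symbol and holds 10 genes: the membrane glycoprotein Cd36, the fatty acid transport proteins Slc27a2, Slc27a4 and Slc27a5, the fatty acid binding proteins Fabp1 and Fabp4, and the long-chain acyl-CoA synthetases Acsl1, Acsl3, Acsl4 and Acsl5. For 9 of the 10, the array annotation names at least 1 probe set for that gene alone, and these 9 genes have 19 probe sets, out of 18193 genes with such a probe set on the array. Acsl1 has no probe set so named and was not analysed here.

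The mice of both groups, 9 weeks old at the outset and acclimatised for 1 week, were put on an n-3-depleted diet, in which sunflower oil replaced soybean oil and the n-6 to n-3 ratio was 127.2. The experiment ran for 112 days, and the groups parted in its last 10 days. In the DEF/FOS group the depleted diet went on and fructooligosaccharides (FOS), a fermentable fibre, were given in the drinking water to an intake of 0.25 g per day. The DEF/CT group was moved to the soybean oil control diet, with a ratio of 6.9, and had no FOS. The treatment protocol gives 8 mice for each group. RNA was pooled in equal amounts from 4 to 8 mice per group, with the number behind either pool not stated, and each pool was measured on 1 Affymetrix array. The pools thus differ in both the fibre and the oil, whose parts cannot be told apart, and with 1 array per group the differences have no replicate check and no test was possible. The study's groups kept on the depleted diet alone or on the control diet throughout were not analysed here.

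Long-chain fatty acids reach the hepatocyte from plasma albumin and from lipoproteins, cross the membrane with the help of CD36 and the SLC27 (FATP) proteins, and are carried in the cytosol by fatty acid binding proteins. Acyl-CoA synthetases join them to coenzyme A, which traps them in the cell and opens the way to oxidation, to triglyceride and to membrane lipids. Several of these genes are known targets of PPARα, the fatty-acid-activated nuclear receptor of the liver, and Cd36 and Fabp4 are also targets of PPARγ. PPARs bind DNA with a partner receptor at a direct repeat of the half-site AGGTCA spaced by a single base, called DR1.

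The promoters of Cd36 and Fabp1 are shown because these genes are known PPAR targets that gave contrasting values on the arrays. Each run covers 250 bases before to 50 bases after the gene's start in RefSeq's mouse assembly GRCm38.p6, written along the gene's strand, with the best match to AGGTCANAGGTCA on either strand in capitals.
Cd36, chr5:17835847-17836146, minus strand: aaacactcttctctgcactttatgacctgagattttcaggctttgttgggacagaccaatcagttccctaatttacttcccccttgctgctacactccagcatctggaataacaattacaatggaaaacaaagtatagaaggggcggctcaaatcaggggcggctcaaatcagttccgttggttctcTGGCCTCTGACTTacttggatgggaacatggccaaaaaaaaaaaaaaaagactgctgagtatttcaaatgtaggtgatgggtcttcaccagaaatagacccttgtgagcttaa
Fabp1, chr6:71199629-71199928, plus strand: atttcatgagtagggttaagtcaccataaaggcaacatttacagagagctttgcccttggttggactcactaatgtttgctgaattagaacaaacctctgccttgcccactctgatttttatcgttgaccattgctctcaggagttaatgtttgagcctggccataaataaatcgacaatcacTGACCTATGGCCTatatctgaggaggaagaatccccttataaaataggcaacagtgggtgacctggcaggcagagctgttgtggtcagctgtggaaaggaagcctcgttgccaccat
In Fabp1 the match differs from the motif at 1 letter and lies from -67 to -55 relative to the start, on the strand opposite to the gene. In Cd36 it differs at 2 letters and lies from -63 to -51, also on the opposite strand. Of 32851 promoters of this length, 0.554% held a match with at most 1 such letter and 3.86% one with at most 2. A match of letters is a description and not a measured binding site.

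RefSeq's table gave a promoter for 7 of the 9 measured genes, the exceptions being Slc27a5 and Fabp4. The best matches in Slc27a2, Acsl4 and Acsl5 differed from the motif at 3 letters, which 24.6% of all promoters also reach or better, and they are shown for comparison with the 2 above, as read along the gene's strand.
Slc27a2: ACGCCTTTGACCT
Acsl4: CGACCTGCGACCC
Acsl5: GGGTCACAGAACA
In Acsl3 and Slc27a4 the best match differed at 5 letters. Fabp1 was the only one of the 7 with the motif TATAAA (either strand), from -30 to -25 and clear of the DR1 match, against 13.6% of all promoters. The motif GGGCGG (either strand) was found in 5 of the 7, among them Cd36, against 35.7% of all promoters. The CG dinucleotide occurred 33 times in the promoters of Acsl3 and of Acsl4, 25 times in Slc27a2, 14 times in Slc27a4 and 9 times in Acsl5, but 3 times in Cd36 and 3 times in Fabp1, where the median of all promoters was 7.

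Signals below are MAS5 intensities in arbitrary units, scaled by the authors to a common mean. Differences are log2 signal in the DEF/FOS pool minus the DEF/CT pool, centred on the median of all probe sets above a floor of 19.4, the median signal on the arrays. A gene's value is that of its brightest probe set, and a difference was counted at 1.5-fold. The only spread that could be measured is the SD between probe sets of 1 gene, which was 0.57 on the log2 scale at signals of 19.4 to 37.4, 0.41 up to 84.3, 0.31 up to 235 and 0.23 above. It leaves out the spread between mice and between arrays.

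Of the 9 measured genes, 1 was higher with DEF/FOS by 1.5-fold or more and 0 were lower by as much. Of all 11163 genes above the floor, 6.75% were higher by this fold and 7.82% lower, so this count is near the background. All 9 genes also lay above the 75th percentile of signal, where 4.01% of 6751 genes were higher by this fold and 2.77% lower. The median difference of the 9 genes was 0.08, against 0.00 for all genes above the floor and 0.02 for the genes above the 75th percentile. Positive differences were found in 6 of the 9 genes, against 49.9% of all genes and 53.6% of those above the 75th percentile. The gene past the limit was Cd36.

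**Figure D1:**
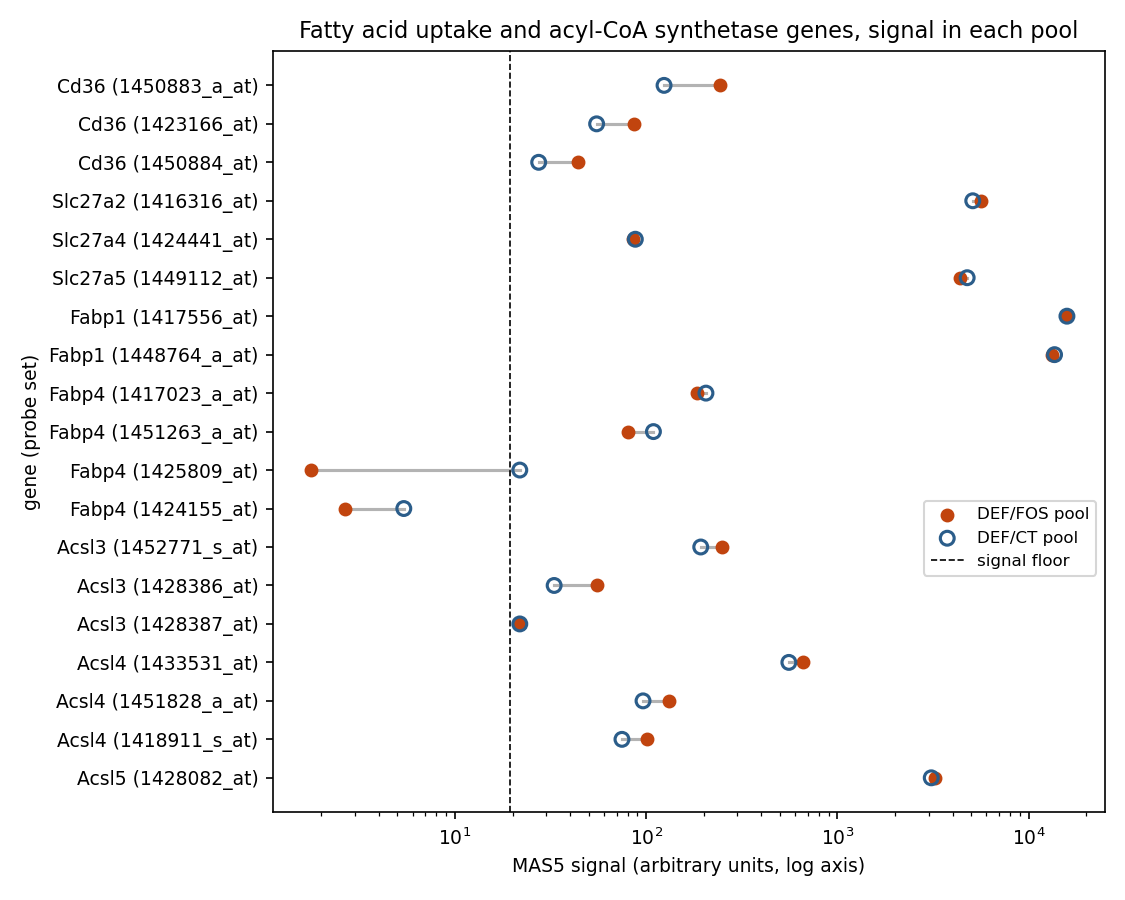
MAS5 signal (log axis) of all 19 probe sets of the 9 measured genes, in the DEF/FOS pool (filled points) and the DEF/CT pool (open circles), with the signal floor of 19.4 as a dashed line. The pools are set apart in all 3 Cd36 probe sets and nearly coincide in both Fabp1 probe sets.

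Cd36 encodes a scavenger receptor that aids uptake of long-chain fatty acids and oxidised lipoproteins, and it is present on macrophages, endothelium, fat cells and muscle as well as on hepatocytes. Its brightest probe set read 242 with DEF/FOS and 124 with DEF/CT. A further probe set had 86.2 with DEF/FOS and 55.0 with DEF/CT, and the dimmest had 43.9 with DEF/FOS and 27.4 with DEF/CT. The DEF/FOS pool was the higher one in all 3 probe sets, by 1.97-fold, 1.58-fold and 1.62-fold. The log2 differences were 0.98, 0.66 and 0.69, a mean of 0.78 with an SD of 0.18 between the probe sets. Each was larger than the SD of its signal range, at 3.11, 1.63 and 1.22 times that SD.

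Among the genes with 3 or more probe sets above the floor, 14 of 2029, or 0.69%, were 1.5-fold or more higher with DEF/FOS by every probe set, and Cd36 was one of them. Of all genes above the floor, 1.89% had a larger positive difference than the brightest Cd36 probe set, and of those above the 75th percentile of signal 0.963% did. The other Cd36 probe sets differed by 0.66 and 0.69, and by them both shares would be larger. All these shares describe the 2 arrays and do not measure the spread between mice.

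The transport proteins of the SLC27 family differed far less. Slc27a2 (FATP2), which both takes up fatty acids and activates very-long-chain ones, had 5649 with DEF/FOS and 5103 with DEF/CT, a log2 difference of 0.16. Slc27a5 (FATP5), the hepatocyte protein that also joins bile acids to coenzyme A, had 4369.9 with DEF/FOS and 4771 with DEF/CT, a difference of -0.11. Slc27a4 (FATP4), an endoplasmic reticulum acyl-CoA synthetase best known from intestine and skin, had 84.9 with DEF/FOS and 87.7 with DEF/CT, a difference of -0.03 whose sign was positive when no floor was set. All 3 differences were smaller than the SD between probe sets at their signals. Each of these genes rests on a single probe set.

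The bile acid role of Slc27a5 sets it beside Baat, which moves the activated bile acid onto glycine or taurine. Baat had 1110.0 with DEF/FOS and 1168 with DEF/CT, a difference of -0.06. Amacr and Acox2, enzymes of bile acid side-chain shortening, differed by -0.26 and 0.11. Of the 3 partner genes, 0 passed 1.5-fold in either direction.

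Fabp1, the abundant fatty acid carrier of the hepatocyte cytosol, had nearly equal signals in the pools. Its brighter probe set had 15844 with DEF/FOS and 15862.5 with DEF/CT, and its other probe set had 13304 with DEF/FOS and 13663 with DEF/CT. The differences were 0.01 and -0.02, and the sign of the first turned under some settings. The brighter probe set had the highest signal of all probe sets on both arrays, and whether a limit at the top of the scale narrowed its difference was not tested. Over the 100 brightest probe sets, with signals of 5459 or more, the differences ran from -0.79 to 0.89 with an SD of 0.18.

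Fabp4, the carrier typical of fat cells and macrophages, was on the lower side in the DEF/FOS pool. It had 185 with DEF/FOS and 205 with DEF/CT by its brightest probe set, and 80.2 with DEF/FOS and 109 with DEF/CT by the next. The differences were -0.14 and -0.43, and neither reached 1.5-fold. The first was smaller than the SD of 0.31 at these signals and the second somewhat larger. Its other probe sets averaged below the floor and give no fold. They read 1.76 and 2.66 with DEF/FOS, against 21.8 and 5.40 with DEF/CT. Cd36 and Fabp4, both known PPARγ targets, had differences of opposite sign, but that of the brightest Fabp4 probe set was within the SD.

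**Figure D2:**
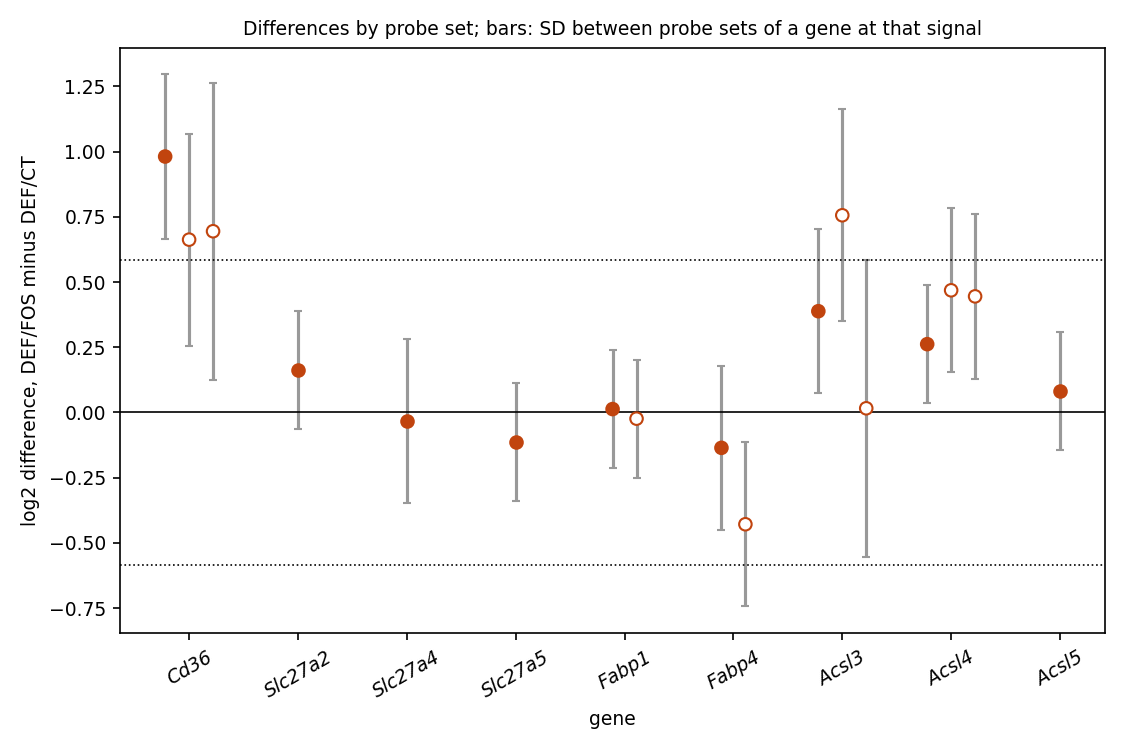
Log2 difference, DEF/FOS minus DEF/CT, for the 17 probe sets above the floor, with the brightest of each gene filled, the SD between probe sets of a gene at that signal as bars, and 1.5-fold as dotted lines. The 3 Cd36 points lie above the upper dotted line, as does 1 of the 3 Acsl3 points.

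Among the synthetases, Acsl4 and Acsl3 were on the higher side in the DEF/FOS pool. Of all genes above the floor, 21.7% had a larger difference than the brightest Acsl4 probe set, and 13.7% than that of Acsl3. Acsl4, which prefers arachidonate and other polyunsaturated fatty acids as substrates, had 661 with DEF/FOS and 557 with DEF/CT by its brightest probe set. Its other probe sets had 132 and 101 with DEF/FOS, against 96.2 and 74.7 with DEF/CT. All 3 differences were positive, at 0.26, 0.47 and 0.45, with a mean of 0.39 and an SD of 0.11 between the probe sets. Each exceeded the SD of its signal range, at 1.16, 1.49 and 1.41 times that SD, and none reached 1.5-fold. For scale, 19.3% of the genes with 3 or more probe sets above the floor had positive differences in all of them.

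The probe sets of Acsl3, a synthetase of the endoplasmic reticulum and lipid droplets, disagreed in size. The brightest had 249.8 with DEF/FOS and 193 with DEF/CT, a difference of 0.39. The second had 55.1 with DEF/FOS and 33.0 with DEF/CT and was thus 1.69-fold higher with DEF/FOS, a difference of 0.76. The third lay just above the floor with 21.8 in both pools, a difference of 0.02. The mean was 0.39 with an SD of 0.37 between them, so the size for Acsl3 depends on the probe set. When probe sets marked as shared between transcripts were left out, the second stood for the gene and Acsl3 passed 1.5-fold, at 0.77. Acsl5, which is found on mitochondria and endoplasmic reticulum of liver and intestine, had 3247 with DEF/FOS and 3095 with DEF/CT, a difference of 0.08 that was smaller than the SD at its signal.

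**Figure D3:**
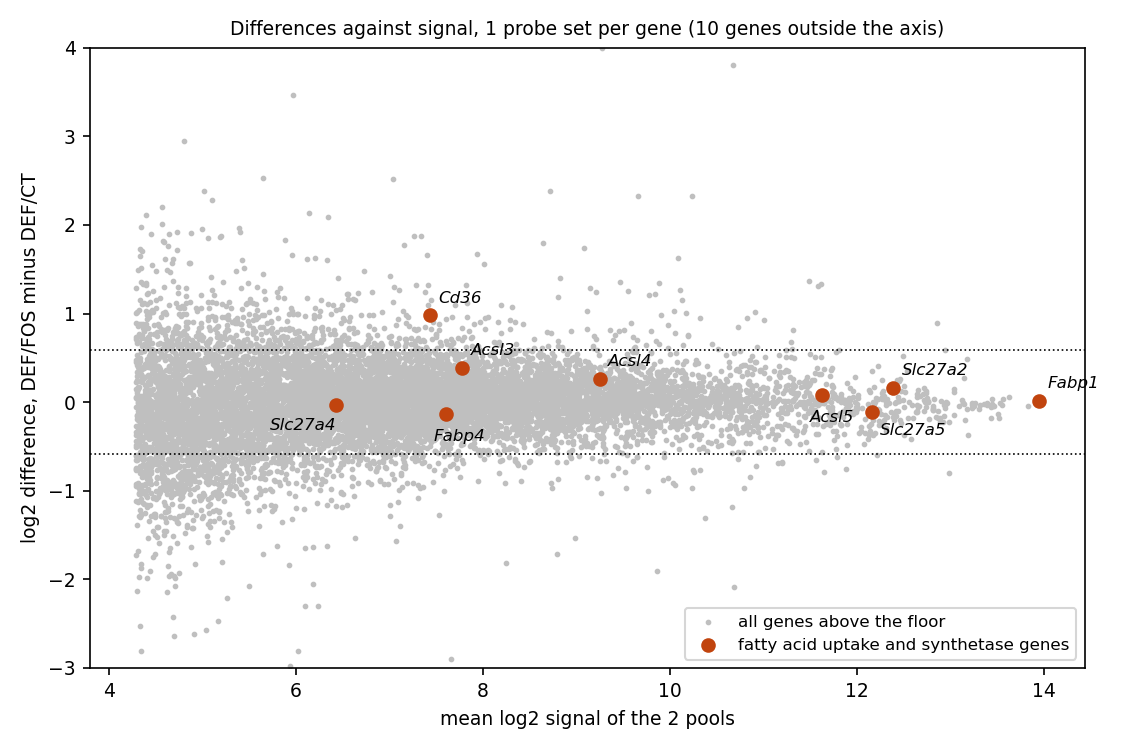
Log2 difference, DEF/FOS minus DEF/CT, against mean log2 signal of the 2 pools for all 11163 genes above the floor (grey) and the 9 genes (red), with 1.5-fold as dotted lines and 10 genes outside the axis. Cd36 lies toward the upper edge of the cloud, and the other 8 lie within it.

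Other genes of the same steps, from lists set up with earlier results of these data known, varied in both directions. Of the 7 other acyl-CoA synthetases above the floor, 1 passed 1.5-fold on the higher side with DEF/FOS and 0 on the lower side, and the median was -0.20. Acsf2, a synthetase of medium-chain fatty acids, was 2.17-fold higher, at 68.3 with DEF/FOS and 31.8 with DEF/CT. Acss2, which activates acetate in the cytosol, was 1.48-fold lower by its brightest probe set, at 1606 with DEF/FOS and 2394 with DEF/CT. Its 3 probe sets ran from -0.56 to 0.15. Acsm3, of the medium-chain family, differed by -0.45. The remaining transport protein above the floor, Slc27a1, differed by -0.10.

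Of the 4 other fatty acid binding proteins above the floor, 1 passed 1.5-fold, on the lower side. It was Fabp3, the carrier of heart and skeletal muscle, at 21.8 with DEF/FOS and 92.9 with DEF/CT. Fabp5 had differences of -0.37 in its brightest probe set and -0.66, past 1.5-fold, in the other, and Fabp2, the intestinal carrier, one of 0.36. Of 12 genes for acyl-CoA carriers and for the supply of fatty acids from lipoproteins, 1 passed 1.5-fold on the higher side and 0 on the lower, and the median was 0.02. That gene was the lipoprotein receptor Vldlr, at 56.8 with DEF/FOS and 36.2 with DEF/CT, and the count was 0 in 3 of the 8 alternative settings. Acbd3 differed by 0.39, with probe sets from -0.75 to 0.87, and the lipase Lpl by -0.20, with probe sets of both signs.

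The regulators of these genes also went both ways. Of 10 transcription factors above the floor, 2 passed 1.5-fold on the higher side with DEF/FOS and 0 on the lower, and the median was -0.15. The first count was 1 in 4 of the 8 alternative settings. Pparg had 43.2 with DEF/FOS and 28.3 with DEF/CT, 1.54-fold higher on 1 probe set of low signal. Ahr, the aryl hydrocarbon receptor, differed by 0.89 in its brightest probe set and by -0.02 in the other. Ppara had 963 with DEF/FOS and 1300.2 with DEF/CT, and its 3 probe sets lay between -0.50 and -0.41. Ppard differed by -0.45.

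Of 12 other PPARα target genes, 6 passed 1.5-fold on the higher side with DEF/FOS and 0 on the lower, and the median was 0.57, beside the 0.08 of the uptake and synthetase genes. The largest were Cyp4a14, a fatty acid omega-hydroxylase, at 3.80, the thioesterase Acot1 at 1.74 and the peroxisomal enzyme Ehhadh at 1.33. Cpt1a, whose enzyme acts on acyl-CoA on the way to mitochondrial oxidation, differed by 0.18, with probe sets from 0.06 to 0.53. Of 3 other PPARγ targets above the floor, Cidec, a lipid droplet protein, was higher with DEF/FOS by at least 2.33-fold. It had 44.7 with DEF/FOS and 14.8 with DEF/CT on 1 probe set of low signal. That probe set passed the floor only through the DEF/FOS pool. Plin4 and Lpl differed by -0.32 and -0.20.

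**Figure D4:**
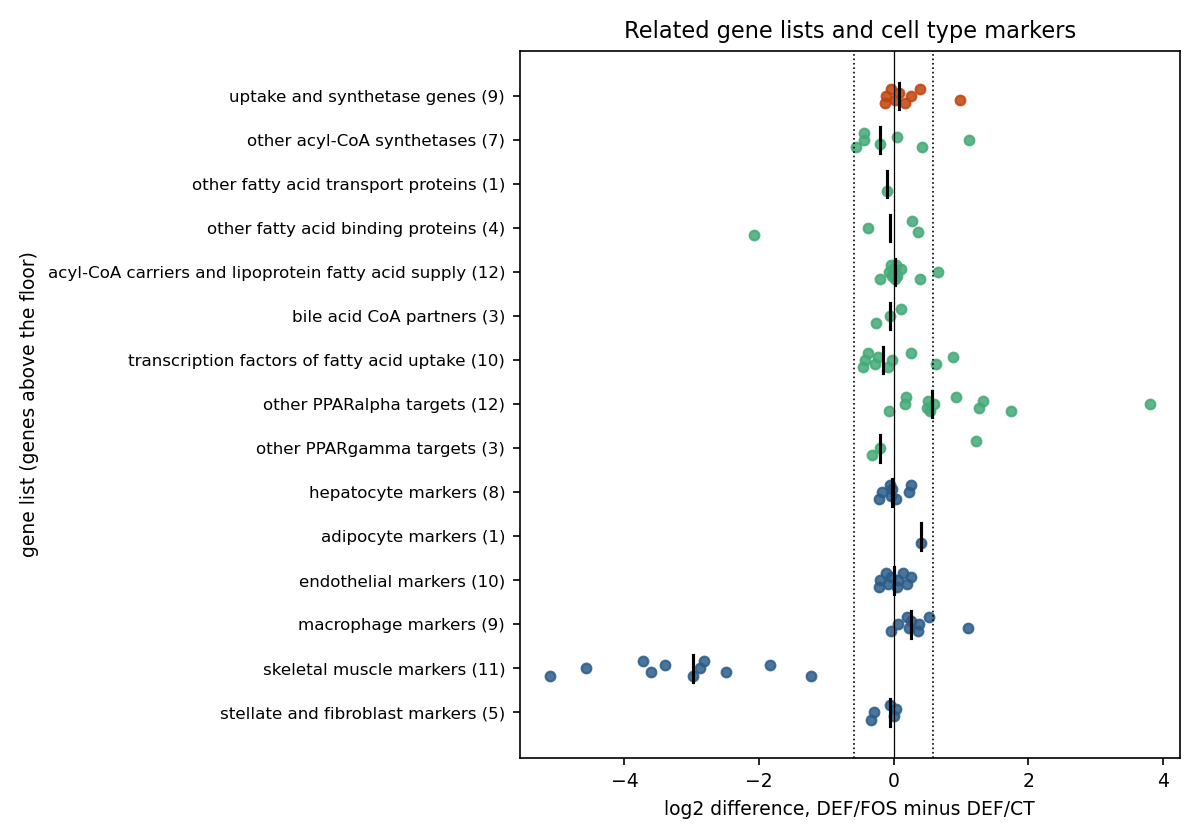
Log2 difference, DEF/FOS minus DEF/CT, of each gene above the floor (points) and the median (vertical bar) in the uptake and synthetase genes, 8 related gene lists and 6 lists of cell type markers, with a pool below the floor set to the floor. The other PPARα targets lie mostly to the right of 0 and all 11 skeletal muscle markers to the left of it. Of these 11, 8 passed the floor only through the DEF/CT pool.

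Cd36 and Fabp4 are expressed in several cell types, and in bulk tissue fewer cells of a type and less RNA per cell cannot be told apart. The label of liver was borne by the hepatocyte markers, with albumin (Alb) at 11023 with DEF/FOS and 11303 with DEF/CT and 0 of 8 markers past 1.5-fold. Hnf4a, Apob and Cps1 differed most, by 0.25, 0.22 and -0.22. Of 9 macrophage markers, 8 had positive differences and 1 passed 1.5-fold on that side, and the median was 0.25. Their summed signal was 4364 with DEF/FOS and 3588 with DEF/CT, and the largest differences were Marco at 1.10, C1qa at 0.52 and Lyz2 at 0.38. Of 10 endothelial markers, 0 passed 1.5-fold, with a summed signal of 2227 with DEF/FOS and 2253 with DEF/CT, and Pecam1, Kdr and Tek differed by 0.25, -0.22 and -0.20. The part of macrophages in the Cd36 difference was not tested.

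Of 6 fat cell markers, 1 was above the floor. The summed signal was 138 with DEF/FOS and 99.8 with DEF/CT, but it includes 5 markers that averaged below the floor and give no fold. Adipoq, the defining adipocyte hormone, had 18.8 with DEF/FOS and 19.8 with DEF/CT. The marker above the floor, Lipe, had 75.6 with DEF/FOS and 57.6 with DEF/CT, a difference of 0.41 that was about the SD at its signal. Of 5 stellate cell and fibroblast markers above the floor, 0 passed 1.5-fold, and Lrat, Reln and Des differed by -0.33, -0.29 and -0.06.

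All 11 skeletal muscle markers above the floor were lower with DEF/FOS, with a summed signal over the 13 markers of 125 with DEF/FOS and 2922 with DEF/CT. The DEF/FOS signal was below the floor in 8 of the 11. These 8 passed the floor only through the DEF/CT pool, so the filter fixed their direction. Acta1, skeletal muscle actin, was lower with DEF/FOS by at least 34.5-fold, and Tnnc2, Myh1 and Myl1 by at least 23.7-, 13.1- and 10.6-fold. Fabp3, a muscle gene, was lower in the DEF/FOS pool, and Cd36, which muscle also expresses, was higher in it. The part of muscle RNA in the values of Fabp3 and of the uptake and synthetase genes was not tested.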

How the data were processed

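Liver RNA of 2 groups was measured, with equal amounts pooled within a group and 1 Affymetrix array per pool, per the labels' protocols. The authors deposited linear MAS5 signal intensities of 45101 probe sets, 64 of them controls. The submitters' processing notes name MAS5 and GCOS without versions. Both arrays had a trimmed mean of 100.00 (2% trimmed per side). No detection calls were used.

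Names came from the platform annotation, in which 34958 probe sets have 1 symbol and 932 several, and none was named from a probe set with several. The log2 signals were subtracted with no offset and centred on the median of -0.01 over probe sets at or above the floor, using Python 3.11.15 and pandas 2.3.3. A pool below the floor was set to it and the fold printed as a lower bound. The procedure was tested on simulated data with noise of the same size at every signal, which does not check values near the floor. Arrays allow no interval on a single signal, and their number limits the precision.

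The members and lists were chosen with earlier results of these data known. Named were all members, the 3 genes of each other list that differed most in either direction, and 8 genes given by symbol. Promoters of RefSeq were searched for DR1, TATA and GC box letters on both strands. There were 8 alternative settings.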

Additional observations from a re-analysis of the deposited data

How the results depend on the processing

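No paired analysis was possible because each group has 1 array, and no replicate could be left out. Under 8 alternatives, the count of uptake and synthetase genes at least 1.5-fold higher in the DEF/FOS pool was 1 in 7 of them. Without probe sets whose names mark them as shared between transcripts, it was 2, since Acsl3 was then represented by another probe set at 0.77, against 0.39. Fabp4 had no probe set left above the floor in that setting. The count at least 1.5-fold lower was 0 throughout, and the median ran from 0.06 to 0.14. Cd36 ran from 0.67 to 1.04, Acsl4 from 0.21 to 0.45, Fabp4 from -0.28 to -0.08, Slc27a4 from -0.06 to 0.02 and Fabp1 from -0.01 to 0.07. Of 71 such gene values, 70 moved by less than the SD between probe sets, but many of them could not have moved further. Changing the floor, leaving out centring or centring on hepatocyte markers kept each gene's probe set and shifted all members alike. The centre then lay between -0.07 and 0.01, against -0.01. The median over probe sets could not move genes with 1 probe set. Over all genes, 754 passed 1.5-fold on the higher side and 873 on the lower, but 244 and 212 with the floor at the 75th percentile, 2856 and 3546 with no floor, and 284 and 288 with an offset of 32. The median of the other acyl-CoA synthetases, -0.20, ran from -0.45 to 0.22. The counts of 1 carrier and supply gene (Vldlr) and 2 transcription factors on the higher side were 0 and 1 with the floor at the 75th percentile, with an offset of 32 and without shared probe sets, and the transcription factors also gave 1 with the median over probe sets. With the floor at the 75th percentile, the counts led by Acsf2, Fabp3 and Cidec were 0. Without shared probe sets, 2 other fatty acid binding proteins passed 1.5-fold on the lower side, against 1. With no floor, 5 other acyl-CoA synthetases passed 1.5-fold on the lower side, against 0. The count of 11 skeletal muscle markers on the lower side was 1 with the floor at the 75th percentile and 6 without shared probe sets.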
